A study of Drosophila melanogaster with 9 samples.

Results

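RNA polymerase II (Pol II) occupancy was set against trimethylation of histone H3 at lysine 4 (H3K4me3) in bam testis of Drosophila melanogaster, using the ChIP-seq library of each target, 2 of the 9 libraries of the series. The testes carried the bam1 and bam114-97 alleles of bag of marbles, a gene that germ cells need to leave the spermatogonial stage. Such testes accumulate undifferentiated germ cells and also hold somatic cells, so each value is a mixture over cell types. About 200 pairs of testes were pooled for each ChIP. The Pol II antibody recognises initiating and elongating forms of the enzyme. S2 cells, an established line derived from Drosophila embryos, provided a Pol II and an H3K4me3 library for comparison. Each target had 1 library per sample, so nothing below has a replicate, no test between samples was made, and all intervals cover counting error only. The tissue could not be checked against germ cell and somatic markers, because no gene annotation of the genome build of the files, dm3, was used here.

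Pol II transcribes all protein-coding genes. It assembles at promoters, often pauses shortly after initiation, and then moves through the gene body. H3K4me3 marks nucleosomes at the start of active genes, in Drosophila mostly just downstream of the start site, while H3K36me3 is laid down in gene bodies behind elongating Pol II and H3K27me3 marks regions repressed by Polycomb. The comparison asked how closely Pol II and H3K4me3 coincide along the genome of this germ cell-enriched tissue.

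Reads were counted in 240738 tiles of 500 bp that cover the chromosome arms 2L, 2R, 3L, 3R, 4 and X. Density is given as reads per kb per 1000000 kept reads (RPM per kb), and a tile at 22 or more is called a Pol II tile or an H3K4me3 tile. The Pol II library held 1342183 reads and the H3K4me3 library 1406425 reads, so the threshold corresponds to 15 and 16 reads in a tile, where the median tile had 4 reads in both libraries. For Pol II, 1797 tiles lay just inside the threshold at 22.4 RPM per kb and 2346 just outside it at 20.9 RPM per kb. For H3K4me3, 808 tiles lay just inside at 22.8 RPM per kb and 1050 just outside at 21.3 RPM per kb. A call near the threshold therefore turns on a single read.

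Pol II and H3K4me3 coincided in 3953 tiles. Over all tiles, 12169 were Pol II tiles (5.05%) and 9731 were H3K4me3 tiles (4.04%). Pol II reached the threshold in 40.6% of H3K4me3 tiles (95% Wilson interval 39.7 to 41.6), against 3.56% of the tiles without H3K4me3. In the other direction, 32.5% of Pol II tiles were H3K4me3 tiles (31.7 to 33.3), against 2.53% of the tiles without Pol II. Most tiles with either signal thus lacked the other within the same 500 bp at this threshold. Counting bordering tiles as well, the share with Pol II was 53.6% from 22 to below 30 RPM per kb of H3K4me3. It was 96.0% at 100 RPM per kb or more and 4.80% below 5 RPM per kb. In the other direction, 41.4% of tiles from 22 to below 30 RPM per kb of Pol II had H3K4me3 there or next to them. The share of H3K4me3 tiles with Pol II in the same tile depended on the threshold chosen for both targets. It was 45.3% at 14 RPM per kb and 24.3% at 30 RPM per kb, while 13.2% and 2.15% of all tiles were then Pol II tiles.

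In the tiles with both, the median density was 31.3 RPM per kb for Pol II and 39.8 RPM per kb for H3K4me3. The 8216 tiles with Pol II alone had nearly as much Pol II, with a median of 28.3 RPM per kb, but 8.53 RPM per kb of H3K4me3, with an upper quartile of 12.8 RPM per kb, where the median of all tiles was 5.69 RPM per kb. The 5778 tiles with H3K4me3 alone were not devoid of Pol II. Their median Pol II density was 13.4 RPM per kb, with an upper quartile of 17.9 RPM per kb, where the median of all tiles was 5.96 RPM per kb. H3K27me3 reached 22 RPM per kb in 0.557% of tiles with both, in 0.706% of those with Pol II alone and in 0.294% of those with H3K4me3 alone, against 2.67% of all tiles. H3K36me3 reached it in 22.1%, 21.2% and 28.4% of these classes, against 7.79% of all tiles.

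The 2 levels were not related in the same way in both directions. The share of tiles with Pol II was 1.80% below 5 RPM per kb of H3K4me3 and 12.5% from 14 to below 22 RPM per kb. It was 31.2% from 22 to below 30, 50.3% from 50 to below 100 and 84.2% (79.5 to 88.1) in the 273 tiles at 100 RPM per kb or more. The median Pol II density of those 273 tiles was 37.3 RPM per kb. The share thus rose with each higher class of H3K4me3, and the intervals of neighbouring classes did not overlap.

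The share of tiles with H3K4me3 behaved differently along the Pol II scale. It was 0.225% below 5 RPM per kb of Pol II, 27.4% from 22 to below 30 and 39.1% (37.5 to 40.6) from 30 to below 50. It then levelled off at 40.7% (38.0 to 43.5) from 50 to below 100 and 34.1% (26.6 to 42.5) in the 132 tiles at 100 RPM per kb or more, and the intervals of these 3 classes overlapped. Counting an H3K4me3 tile next to the tile as well, the share was 0.974% below 5 RPM per kb of Pol II and 41.4% from 22 to below 30. In the 132 strongest Pol II tiles it was 56.8% (48.3 to 65.0). Median H3K36me3 density was 5.27 RPM per kb in these tiles, against 10.5 RPM per kb in Pol II tiles below 30, whereas the median Pol II density of the same tiles in S2 cells was 228 RPM per kb, against 17.7 RPM per kb. The tiles with the most Pol II in bam testis were therefore also high in S2 cell Pol II, and most of them were not H3K4me3 tiles themselves.

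**Figure D1:**
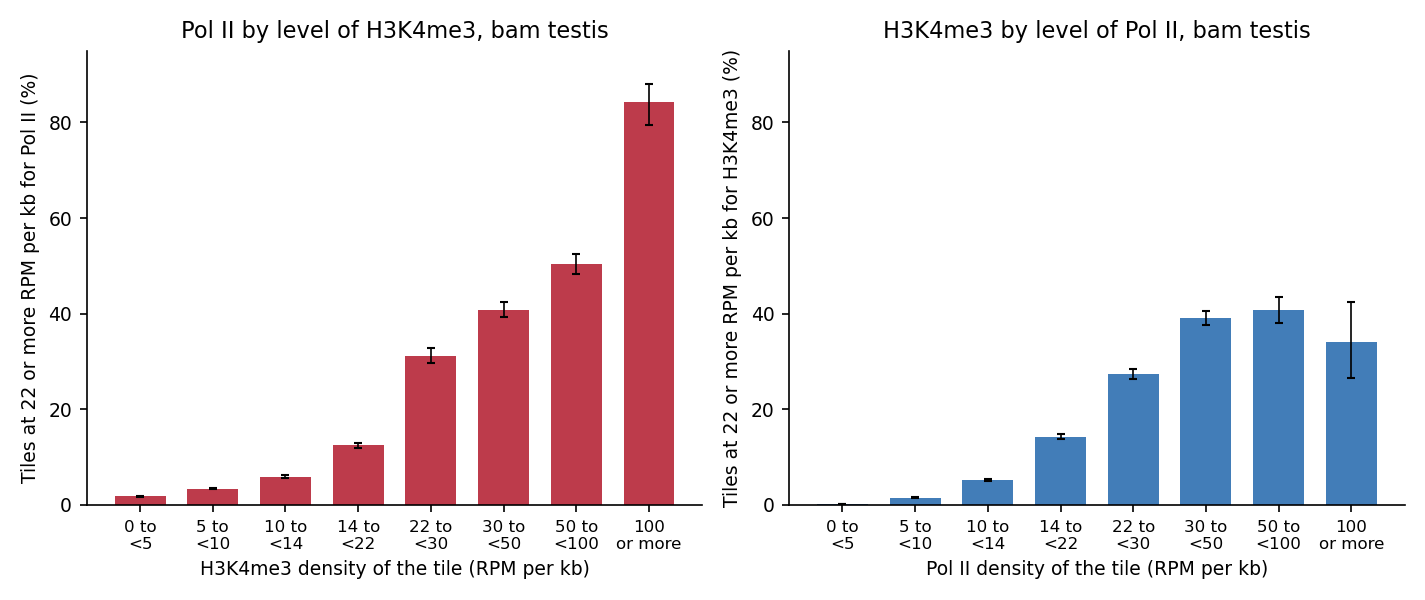
Share of 500-bp tiles at 22 or more RPM per kb for Pol II by the H3K4me3 density of the tile (left), and for H3K4me3 by the Pol II density of the tile (right), in bam testis; bars are shares in percent and error bars 95% Wilson intervals. The left share climbs to 84.2% in the highest class, and the right share levels off between 34.1% and 40.7% from 30 RPM per kb of Pol II upwards.

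Over all tiles, Spearman's rho between Pol II and H3K4me3 was 0.42. It was 0.35 over the 230921 tiles with at least 1 read in any bam testis library, so it was lower once tiles that no library covered were left out. With all tiles of 2L, 2R, 3L and 3R only, rho was 0.37. Within H3K4me3 tiles rho was 0.25 (n = 9731), and within Pol II tiles it was 0.14 (n = 12169). Between Pol II and H3K36me3 it was 0.40 over all tiles, and 0.33 over the tiles with a read in any bam testis library. Between Pol II and H3K27me3 it was −0.0010 over all tiles and −0.13 over the tiles with a read. Of the other libraries compared, Pol II of S2 cells was closest to Pol II of bam testis, with a rho of 0.54. These values describe tiles that share base composition, mappability and, within each library, depth.

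Adjacent H3K4me3 tiles were joined into runs. There were 4437 runs in bam testis, with a median length of 1000 bp and a longest length of 6000 bp, and they occupied 4.04% of the tiles. Pol II took no part in defining them. At least 1 Pol II tile lay in 2327 runs, 52.4% (51.0 to 53.9), and in a further step out to the tiles that border a run the number was 2863, 64.5% (63.1 to 65.9). A wider stretch reaches the threshold more often by itself, and stretches of equal length elsewhere were not counted. In single tiles below 5 RPM per kb of H3K4me3, counting bordering tiles as well raised the share with Pol II from 1.80% to 4.80%. The share in runs was 38.6% at 14 RPM per kb for both targets and 31.2% at 30 RPM per kb. The median Pol II density of a run was 18.6 RPM per kb, with quartiles of 13.4 and 25.8 RPM per kb. Nearly all runs were above the genome at large, since 122 of them (2.75%) fell below the median tile of 5.96 RPM per kb.

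Longer runs held Pol II more often. The share with a Pol II tile was 30.0% (28.0 to 32.2) of the 1844 runs of 1 tile, 56.3% of the 1280 runs of 2 tiles and 72.1% of the 603 runs of 3 tiles. It was 84.3% of the 548 runs of 4 or 5 tiles and 96.3% (92.2 to 98.3) of the 162 runs of 6 tiles or more. A longer run has more tiles that could reach the threshold, but its mean density was higher too. The median Pol II density was 14.9 RPM per kb in runs of 1 tile, 18.6 RPM per kb in runs of 2 tiles, 20.4 RPM per kb in runs of 3, 21.6 RPM per kb in runs of 4 or 5 and 24.5 RPM per kb in runs of 6 or more. Runs split at the quartiles of H3K4me3 density gave the same order, with Pol II in 28.7% of the runs with the least H3K4me3, and in 71.9% of those with the most. The median length was 1 tile in the former and 2 tiles in the latter, so this split does not separate level from length.

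The 2110 runs without a Pol II tile still had a median Pol II density of 12.9 RPM per kb. They were shorter, with a median length of 500 bp against 1000 bp in the runs with Pol II, and weaker in H3K4me3, with a median of 31.3 RPM per kb against 40.9 RPM per kb. Their median H3K36me3 density was 11.7 RPM per kb, against 14.1 RPM per kb in the runs with Pol II, and the median H3K27me3 density was 4.02 RPM per kb in both. An S2 cell Pol II tile lay in 31.1% of the runs without Pol II in bam testis, against 83.8% of those with it. An S2 cell H3K4me3 tile lay in 72.3% against 92.5%. Of all tiles, 6.11% were S2 cell Pol II tiles and 6.24% S2 cell H3K4me3 tiles. The runs with Pol II were longer and so had more tiles that could reach the threshold in S2 cells. Across the 4437 runs, rho of Pol II density was 0.30 with H3K4me3, 0.0048 with H3K36me3, −0.07 with H3K27me3 and 0.65 with Pol II of S2 cells. The runs were chosen on H3K4me3, which narrows its range. High H3K27me3 was also rarer in them. An H3K27me3 tile lay in 0.688% of the runs with Pol II and 0.711% of those without, against 2.67% of all tiles. The rho values therefore cannot be ranked against each other.

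Around the runs Pol II formed a broader and lower peak than H3K4me3. Pooled over runs, the Pol II density was 22.8 RPM per kb (22.7 to 22.9), against 9.59 RPM per kb (9.55 to 9.64) in flanking tiles 2 to 5 kb away and outside any run, a ratio of 2.37 (2.36 to 2.39). Aligned on the centre of each run, mean Pol II density was 21.4 RPM per kb within 500 bp of the centre, 18.2 RPM per kb from 500 to 1000 bp, 15.1 RPM per kb from 1000 to 1500 bp and 12.6 RPM per kb from 4500 to 5000 bp. H3K4me3 was 37.2, 18.9, 15.0 and 11.9 RPM per kb over the same distances. In a running mean over 250 bp, the midpoint between the centre and the level at 4 to 5 kb was reached 875 bp from the centre for Pol II and 475 bp for H3K4me3. The centre stood 1.69 times above the level at 4 to 5 kb for Pol II and 3.75 times for H3K4me3. The runs were chosen on H3K4me3, so the height and width of its own peak are a description of that choice.

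**Figure D2:**
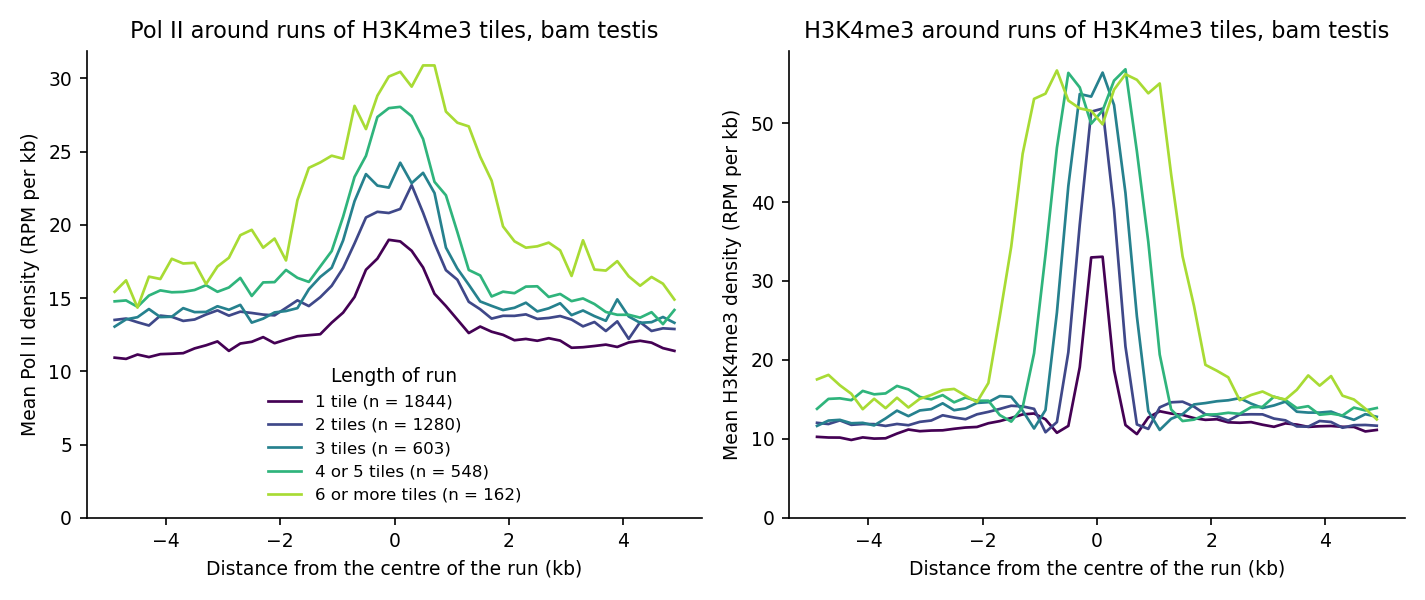
Mean density of Pol II (left) and H3K4me3 (right) in RPM per kb, in steps of 200 bp, against distance in kb from the centre of runs of H3K4me3 tiles in bam testis, with 1 line per length of run and the number of runs in the legend. Pol II is lowest around runs of 1 tile, and highest around runs of 6 or more tiles, and over all runs it falls to its midpoint at 875 bp, against 475 bp for H3K4me3.

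For runs of 1 tile, Pol II was 18.2 RPM per kb (18.1 to 18.4) within 500 bp of the centre and 11.3 RPM per kb from 4500 to 5000 bp. For runs of 6 or more tiles it was 29.7 RPM per kb (29.0 to 30.4) and 15.5 RPM per kb over the same distances. The Pol II level differed between short and long runs at the far end of the window as well as at the centre.

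A direction was given to a run where H3K36me3, the gene body mark, lay mainly on 1 side, with at least 2 times as many reads as on the other from 500 bp to 3 kb from the run and at least 10 reads on both sides together. This was so for 1890 runs, 42.6%. H3K36me3 was used to choose the side, so its own asymmetry is no finding. In bins of 50 bp, mean H3K4me3 density was highest 75 bp from its centroid on the side away from H3K36me3, at 52.3 RPM per kb. Mean Pol II density was highest farther out on the same side, 275 bp from the centroid, at 24.4 RPM per kb, and the maximum was flat, with 23.2 RPM per kb at 375 bp and 23.5 RPM per kb at 475 bp. Within 500 bp it was 23.2 RPM per kb (22.9 to 23.5) away from H3K36me3 and 20.9 RPM per kb (20.6 to 21.1) towards it, and from 500 to 1000 bp it was 20.0 and 17.4 RPM per kb. The order was the other way round from 2 to 3 kb, with 11.6 RPM per kb (11.5 to 11.8) away from H3K36me3 and 14.5 RPM per kb (14.4 to 14.7) towards it. Pol II was thus shifted outwards near the run and higher over the H3K36me3 side at a distance. H3K4me3 was also higher on that side from 2 to 3 kb, at 13.5 RPM per kb against 8.82 RPM per kb.

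**Figure D3:**
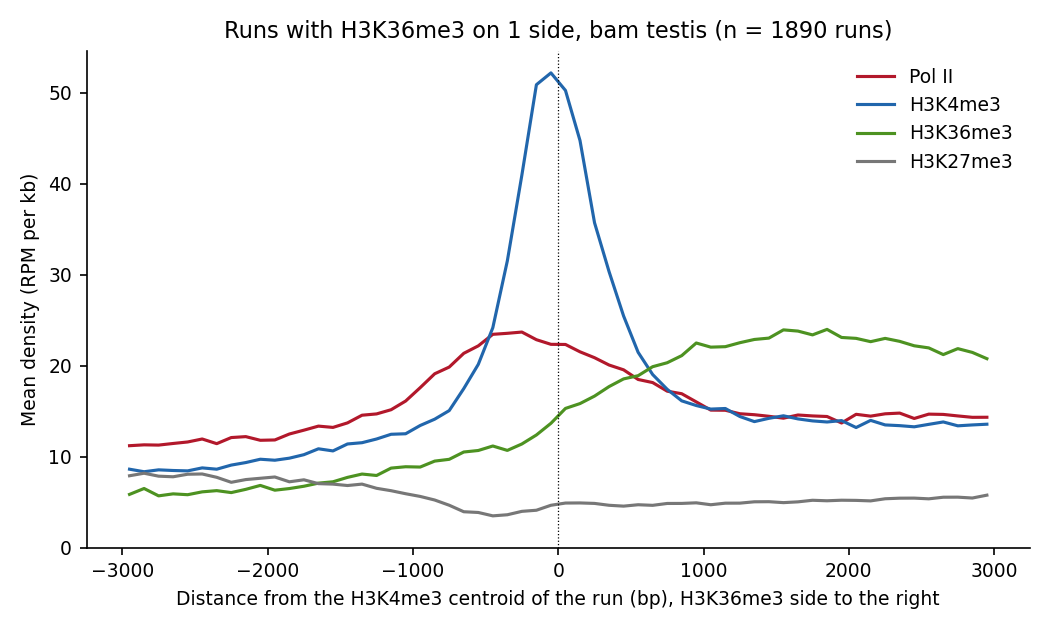
Mean density in RPM per kb of Pol II, H3K4me3, H3K36me3 and H3K27me3, in steps of 100 bp, against distance in bp from the H3K4me3 centroid of 1890 runs in bam testis, turned so that H3K36me3 lies to the right. The Pol II line is highest left of the dotted centroid line, crosses the H3K4me3 line on its outer slope and stays higher on the right than on the left beyond 2000 bp.

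In single runs the measured displacement was small beside its spread. Centroids were taken over all reads of a run and 500 bp on either side, with at least 10 reads per library. Background reads pull such centroids together, while counting error adds to distances taken without regard to direction. The offsets and distances below are therefore no estimate of the true displacement. The part of counting error in them and in their spread was not tested. The Pol II centroid lay away from H3K36me3, relative to the H3K4me3 centroid, in 1122 of 1885 directed runs with enough reads, 59.5% (57.3 to 61.7). The median offset was −39.8 bp, the minus sign meaning away from H3K36me3, and the quartiles were −147 and 71.1 bp. It was −3.47 bp with runs called at 14 RPM per kb and −53.9 bp at 30 RPM per kb, so its size depended on the threshold. Without regard to direction, the 2 centroids lay within 100 bp of each other in 45.0% of 4396 runs, with a median distance of 114 bp.

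Seen from the highest Pol II point of each of the 2327 runs with Pol II, H3K4me3 was 42.6 RPM per kb within 100 bp, 36.6 RPM per kb from 100 to 300 bp, 34.9 RPM per kb from 300 to 500 bp and 19.4 RPM per kb from 1000 to 1500 bp. H3K36me3 was 13.3 RPM per kb (13.0 to 13.5) within 100 bp, 12.0 RPM per kb (11.8 to 12.2) from 100 to 300 bp and 18.1 RPM per kb from 1000 to 1500 bp. H3K27me3 was 3.95, 3.63 and 5.37 RPM per kb at the same distances. A small local maximum at the Pol II point itself was present in all 3 histone libraries, and its part in the H3K4me3 value there was not tested.

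Away from H3K4me3, Pol II density was graded. It was 16.9 RPM per kb in tiles bordering a run within 0.5 kb, 12.9 RPM per kb at 0.5 to 1 kb and 11.4 RPM per kb at 1 to 2 kb. It was 7.81 RPM per kb at 5 to 10 kb and 5.63 RPM per kb (5.61 to 5.64) beyond 10 kb, where 61.1% of all tiles lay. Pol II tiles followed the same gradient, with 22.6% of the bordering tiles, 5.95% of those at 2 to 5 kb and 3.74% of those at 5 to 10 kb. Even so, 36.8% (35.99 to 37.7) of Pol II tiles were more than 2 kb from any run and 14.5% were more than 10 kb away. The share more than 2 kb away depended on the threshold for both targets, with 26.2% at 14 RPM per kb and 39.8% at 30 RPM per kb. H3K36me3 tiles made up 30.4% of the Pol II tiles at 1 to 2 kb from a run and 8.34% of those beyond 10 kb. The share was 7.79% over all tiles. Mean H3K36me3 density of all tiles, with or without Pol II, fell between the same distances from 14.4 to 5.36 RPM per kb.

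**Figure D4:**
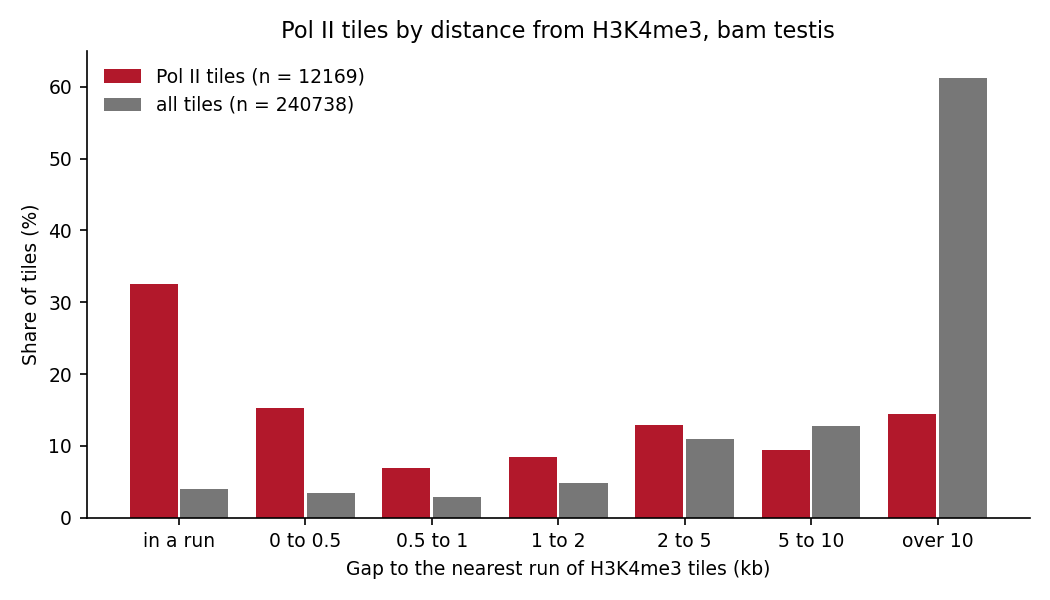
Share in percent of the 12169 Pol II tiles (left bar of each pair) and of all 240738 tiles (right bar) by the gap in kb to the nearest run of H3K4me3 tiles in bam testis. Pol II tiles exceed all tiles in every class up to 2 to 5 kb, and beyond 10 kb they make up 14.5% against 61.1% of all tiles.

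Adjacent Pol II tiles gave 6800 runs, with a median length of 500 bp and a longest length of 11000 bp. An H3K4me3 tile lay in 2354 of them, 34.6% (33.5 to 35.8), and bordered a further 586, 8.62%. The nearest H3K4me3 tile was 0.5 to 5 kb away from 1862 runs and over 5 kb away from 1998 runs, 29.4% (28.3 to 30.5). The median Pol II density, which the threshold itself bounds, was 26.8 RPM per kb in the runs over 5 kb away and 30.5 RPM per kb in runs with an H3K4me3 tile.

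The 1998 distant Pol II runs had a median density of 7.11 RPM per kb for H3K4me3 and 5.86 RPM per kb for H3K36me3, above the median tile of these libraries at 5.69 and 4.69 RPM per kb. Their median H3K27me3 density was 5.36 RPM per kb, below the median tile at 6.97 RPM per kb but above the 3.49 RPM per kb of the Pol II runs with H3K4me3. An H3K36me3 tile lay in 14.5% of the distant runs and in 31.8% of the Pol II runs with H3K4me3, where 7.79% of all tiles were H3K36me3 tiles. The distant runs were shorter, with 73.8% of them 1 tile long against 40.9%, and so had fewer tiles that could reach the threshold. An S2 cell Pol II tile lay in 48.3% of the distant runs, where 6.11% of all tiles were S2 cell Pol II tiles, and an S2 cell H3K4me3 tile in 19.9%, where 6.24% of all tiles were. In the deposited reads over these runs, 6.70% repeated the position and strand of another read, against 6.58% over the Pol II runs with H3K4me3. The share was 5.58% over the runs bordering H3K4me3 and 5.59% over those 0.5 to 5 kb away. The most frequent distance between reads of opposite strands was 75 bp over the bordering runs and 85 bp over the other 3 classes. This maximum stood 1.35 times above the mean over all distances in the distant runs and 1.17 times in the runs with H3K4me3.

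The 8 runs where both signals were highest varied in what else they carried. They are named by dm3 coordinates, and no gene is named because no annotation of that build was used here. The run chr4:86501-88000 had 353 H3K4me3 reads and 164 Pol II reads, a density of 81.5 RPM per kb (69.5 to 94.9) for Pol II and 167 RPM per kb (150 to 186) for H3K4me3. Its H3K36me3 density was 32.0 RPM per kb and its H3K27me3 density 5.18 RPM per kb, and in S2 cells it had 109.8 RPM per kb of Pol II. The run chr2L:10408001-10410500 had 69.7 RPM per kb of Pol II, 94.99 RPM per kb of H3K4me3, 27.4 RPM per kb of H3K36me3 and 4.72 RPM per kb of H3K27me3. The 2 runs on arm 2R, chr2R:10509001-10511000 and chr2R:20790001-20792000, had 68.5 and 72.3 RPM per kb of Pol II and 70.4 and 66.1 RPM per kb of H3K4me3. Their H3K36me3 densities were 40.1 and 14.4 RPM per kb, and H3K27me3 was 2.68 and 3.49 RPM per kb.

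A pair of runs on 3R had both signals within a single tile and H3K36me3 at or below its median tile of 4.69 RPM per kb. The run chr3R:17122501-17123000 had the highest Pol II density of all H3K4me3 runs, 189 RPM per kb (158 to 225) from 127 reads, with 65.4 RPM per kb of H3K4me3, 4.69 RPM per kb of H3K36me3 and 3.22 RPM per kb of H3K27me3. The run chr3R:17202501-17203000 had 70.0 RPM per kb of Pol II, 76.8 RPM per kb of H3K4me3, 1.17 RPM per kb of H3K36me3 and 4.83 RPM per kb of H3K27me3. In S2 cells these runs had 298 and 84.2 RPM per kb of Pol II.

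Both runs on X among the 8 were raised in every bam testis library. The run chrX:8188501-8190000 had 87.4 RPM per kb of Pol II, 110.4 RPM per kb of H3K4me3, 73.1 RPM per kb of H3K36me3 and 61.1 RPM per kb of H3K27me3. In S2 cells the same interval had 1 Pol II read, 0.346 RPM per kb, and 0 H3K4me3 reads, and a count of 0 allows up to 3 reads. The run chrX:11501-12500 had 79.7, 69.7, 77.9 and 42.4 RPM per kb of Pol II, H3K4me3, H3K36me3 and H3K27me3. A rise in all 4 libraries does not follow the target of the antibody, and its part in these values was not tested. Such tiles were rare, 13 in all or 0.329% of the tiles with both.

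At the other end, the 5 runs of 3 or more tiles with the lowest ratio of Pol II to H3K4me3 had between 3.97 and 9.93 RPM per kb of Pol II, where the median tile had 5.96 RPM per kb. The lowest ratio, 0.129, was that of chrX:13615501-13617000, with 10 Pol II reads (4.97 RPM per kb, 2.38 to 9.13) and 81 H3K4me3 reads (38.4 RPM per kb). The run chr3R:5229001-5231500 had 8.05 RPM per kb of Pol II and 50.6 RPM per kb of H3K4me3 and carried H3K36me3 at 23.7 RPM per kb. The run chr3R:26249001-26250500 had 9.93 RPM per kb of Pol II, 61.1 RPM per kb of H3K4me3 and 26.2 RPM per kb of H3K36me3. The runs chr3R:19955001-19957000 and chrX:8974501-8976000 had 5.59 and 3.97 RPM per kb of Pol II. H3K27me3 was between 1.79 and 5.36 RPM per kb in these 5 runs, and S2 cell H3K4me3 was between 92.3 and 186 RPM per kb.

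The 5 strongest Pol II runs without H3K4me3 within 5 kb were 1 tile long each and had 71 to 78 Pol II reads against 3 to 8 H3K4me3 reads. The strongest, chr2R:3038001-3038500, had 116 RPM per kb of Pol II (91.9 to 145) and 4.27 RPM per kb of H3K4me3 (0.880 to 12.5), and it had 1 Pol II read in S2 cells. The other 4, chr3R:25702501-25703000, chr2L:3354501-3355000, chr3R:19495001-19495500 and chr2L:6786501-6787000, had 105.8 to 114.7 RPM per kb of Pol II in bam testis and 158 to 640.0 RPM per kb in S2 cells. H3K36me3 was between 0 and 9.38 RPM per kb in all 5, and H3K27me3 was between 2.68 and 11.3 RPM per kb. Within 5 kb, the highest H3K4me3 tile was at 21.3 RPM per kb for chr3R:19495001-19495500, 1 read under the threshold, and between 14.2 and 17.1 RPM per kb for the others. The upper bounds of the H3K4me3 intervals were between 12.5 and 22.4 RPM per kb.

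**Figure D5:**
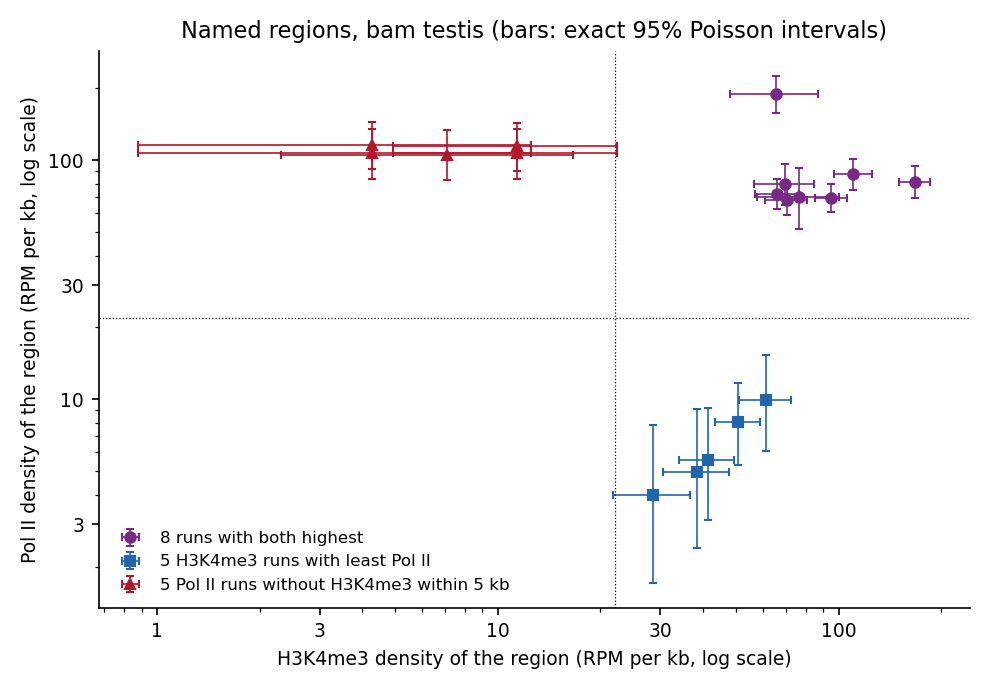
Pol II density against H3K4me3 density (RPM per kb, both axes logarithmic) of the 18 regions named by the rule in bam testis, with exact 95% Poisson intervals as bars and dotted lines at 22 RPM per kb. The groups were chosen by these values, so their separation is a description, and the interval bars show how few H3K4me3 reads lie behind the Pol II runs without H3K4me3.

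The arms differed in how many tiles had each signal as well as in how many had both. Pol II tiles made up 42.6% of the H3K4me3 tiles on 2L, 44.8% on 2R, 41.7% on 3L, 42.7% on 3R and 41.5% on 4, with overlapping intervals. On X the share was 17.9% (15.5 to 20.5), and 18.7% of Pol II tiles were H3K4me3 tiles, against 33.0% on the 4 large autosomal arms. Pol II tiles were 1.87% of all tiles on X, 12.2% on 4 and 5.69% on the large autosomal arms. Over these the share of H3K4me3 tiles with Pol II was 9.55 times on X, 3.40 times on 4 and 7.54 times on the large autosomal arms, so the order of the arms turned with the base rate. Mean density on X was also lower than on the large autosomal arms, in all 4 bam testis libraries. It was 5.16 against 8.50 RPM per kb for Pol II and 4.26 against 8.54 RPM per kb for H3K4me3. For H3K36me3 it was 5.63 against 8.13 RPM per kb, and for H3K27me3 4.97 against 8.62 RPM per kb. With a threshold of 11 RPM per kb on X, an alternative chosen after seeing the data, the shares on X were 47.1% of H3K4me3 tiles and 26.2% of Pol II tiles, where 10.3% of all tiles on X were Pol II tiles. The first of these shares was then 4.57 times that of all tiles, so the place of X in the order depended on the threshold. Male flies have a single X, so copy number and occupancy per copy cannot be told apart in these densities. Arm 4 had the most H3K4me3, in 14.6% of its tiles, and 49.5% (44.2 to 54.9) of its Pol II tiles were H3K4me3 tiles.

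In bam testis fewer of the tiles with either signal had both than in S2 cells, and fewer tiles had each signal. The share of H3K4me3 tiles with Pol II was 40.6% in bam testis and 51.1% (50.3 to 51.9) in S2 cells, where 3.11% of the tiles without H3K4me3 had Pol II. Pol II tiles were 5.05% of all tiles in bam testis and 6.11% in S2 cells, and H3K4me3 tiles were 4.04% in bam testis and 6.24% in S2 cells. Divided by the share of all tiles with Pol II, the share of H3K4me3 tiles with Pol II came to 8.04 for bam testis and 8.36 for S2 cells. The share of Pol II tiles with H3K4me3 was 32.5% in bam testis and 52.2% (51.4 to 53.0) in S2 cells. Pol II lay in 52.4% of H3K4me3 runs in bam testis and in 75.2% (74.1 to 76.4) of 5275 runs in S2 cells. The S2 cell runs were longer on average, with 15021 tiles in 5275 runs against 9731 tiles in 4437 runs in bam testis. The part of run length in these shares was not tested. The density in runs over flanks was 2.37 in bam testis and 5.09 in S2 cells, whereas rho over tiles was 0.42 in bam testis and 0.45 in S2 cells. Depth and background moved with the sample. The Pol II libraries held 1342183 reads in bam testis and 1924876 in S2 cells, and the median tile of the H3K4me3 library was at 5.69 RPM per kb in bam testis and 1.60 RPM per kb in S2 cells. The chromatin of the testes was fixed with formaldehyde and sonicated, while the S2 cells were taken up in a digestion buffer. The part of depth, background and preparation in the difference was not tested, and with 1 library per sample it cannot be told apart from the cell type.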

How the data were processed

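Per the labels and the methods of the study, the authors aligned single-end reads to dm3 with ELAND, kept unique matches with up to 2 mismatches, and deposited 1 line per read with position and strand. Copies were not limited in the deposited files, so up to 3 reads of the same 5′ end and strand were kept. The 5′ ends were shifted inwards by 80 bp, the middle of the 160-bp fragment that the authors took from the spacing of read peaks, and counted in 500-bp tiles from position 1 of each arm. Densities use all kept reads, of which 95.2% (Pol II) and 93.9% (H3K4me3) lay on the 6 arms. PCR copies cannot be told from separate fragments beyond this limit, and neighbouring tiles are not independent, so Wilson and exact Poisson intervals cover counting error only.

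The members, thresholds and comparisons were chosen with earlier results of these data known. Regions named are the 8 H3K4me3 runs with the largest smaller-of-both density, the 5 runs of 3 or more tiles with the lowest ratio of Pol II to H3K4me3, and the 5 densest Pol II runs without an H3K4me3 tile within 5 kb. Genes and sequences were not placed, as no dm3 genome or annotation was used here. Simulated reads were used to check the number of runs, the share of runs with Pol II and, within wide limits, the offset. The simulated sites were strong, widely spaced and centred in tiles. Calls near the threshold and sites split between tiles were therefore not tested. The other S2 cell libraries (H3K27me3, H3K36me3 and RNA-seq) were not used here. Alternatives were 1 copy per read, no shift, thresholds of 14 and 30, tiles moved by 250 bp, the arms 2L, 2R, 3L and 3R only, and no tiles raised in all 4 bam testis libraries. Python 3.11.15, numpy 2.4.6, scipy 1.17.1 and matplotlib 3.10.9 were used.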

Additional observations from a re-analysis of the deposited data

Results flagged for a closer look

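Outside the 6 arms, on the heterochromatic and unplaced sequences of dm3 that the comparison did not use, 212 of 38689 tiles reached 22 RPM per kb for both Pol II and H3K4me3 in bam testis, out of 385 Pol II tiles and 417 H3K4me3 tiles there. Of these 212 tiles, 121 lay on unplaced sequence (U), 49 on 2RHet and 0 on YHet, and 126 were also at 22 RPM per kb for H3K36me3 or H3K27me3. No control library was used here, so this count was not set against a background of the same kind.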

How the results depend on the processing

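With 1 copy of each read, Pol II lay in 37.4% of H3K4me3 tiles and 49.9% of H3K4me3 runs, 33.9% of Pol II tiles had H3K4me3, and the density in runs over flanks was 2.33. At a threshold of 14 RPM per kb the shares were 45.3%, 38.6% and 36.4%. At 30 RPM per kb they were 24.3%, 31.2% and 29.0%, and the ratio was 2.25. On 2L, 2R, 3L and 3R only, Pol II lay in 42.9% of H3K4me3 tiles and 57.2% of runs, and rho over tiles was 0.37. No shift of the reads, tiles moved by 250 bp and leaving out the tiles raised in all 4 libraries kept these 4 values within their counting intervals. No alternative turned the order of runs over flanks, which ranged from 2.25 to 2.39. The tiles with both numbered 11579 at 14 RPM per kb and 1498 at 30, against 3953, and the H3K4me3 runs 13869 at 14 against 4437. Why the values move with the threshold was not tested. No paired analysis was possible because each sample has 1 library per target and no result comes from a test. No library could be left out for the same reason. At 15 or 16 reads per tile, depth limits every call near the threshold.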
